A study of Danio rerio with 12 samples.

Results

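Broad accessible regions are stretches of 1000 bp or more of open chromatin in whole zebrafish embryos. They were chosen from 12 peak lists, 1 per library, of ATAC-seq, in which a transposase cuts DNA where chromatin is open and the fragments are sequenced. In every list the peaks of chromosomes 1 to 25 were ranked by their −log10 p-value, with fold enrichment and position to settle ties, and the best 50000 were taken as the top set of that list. Top-set peaks of all 12 lists that overlapped by at least 1 bp were joined, which gave 112288 merged regions. Of these, 764 were 1000 bp or wider, or 0.680% of the merged regions and 2.08% of their summed length. Widths and ranks therefore chose the regions, and are given here as a description without a test.

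The embryos were wild-type and were taken whole, after removal of the egg envelope and the yolk. They received all-trans retinoic acid (atRA, 0.1 µM), a signalling form of vitamin A, or its solvent dimethyl sulfoxide (DMSO). Embryos collected at 80% epiboly, in late gastrulation, were treated from 30% epiboly. The later collections, at 12 somites and at 24 hours after fertilization (24 hpf), were of embryos treated from 80% epiboly. There were thus 6 groups of 2 libraries, and the labels do not say whether libraries of a group came from separate clutches, so their spread may be technical. A whole embryo mixes many cell types, so a peak that is present in few cells and a peak that is weak in all cells cannot be told apart.

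In general, a site of open chromatin is a promoter or an enhancer from which nucleosomes have been displaced by bound proteins, and it spans little more than the DNA of a single nucleosome. Open stretches of a kilobase are known from promoters with several start sites and from clusters of adjacent enhancers. Retinoic acid acts through nuclear receptors that bind DNA at such elements. Which genes lie at the regions was not analysed here, and the coordinates below are those of the deposited lists. The submitters' processing notes name the builds GRCz10 and danRer10.

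The libraries differed in depth, and the part of depth in the widths was not tested. The background pileup recovered from each list, a measure of its depth, was 3.18 and 3.28 fragments in the DMSO libraries at 80% epiboly and between 0.69 and 2.47 in the other 10. The median width of a top-set peak ran from 244 bp in the shallowest list (12 somites DMSO replicate 1) to 377 bp in 80% epiboly DMSO replicate 1. Peak names of both DMSO lists at 24 hpf hold an extra word that other lists lack, and its meaning is not stated. Whatever it marks falls on the DMSO arm alone, so at 24 hpf it cannot be told apart from treatment. No list repeated another: at most 0.174% of top-set peaks of any pair had identical ends.

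Most broad regions were only a little wider than the minimum. The median width was 1110.5 bp, against 343 bp over all merged regions, and 351 of the 764 (45.9%) were under 1100 bp. At least 1200 bp were reached by 221 regions, at least 1500 bp by 35, and 2000 bp by 2. Just inside the limit lay regions of 1000 bp on chromosome 2, 39717688 to 39718687 and 47361362 to 47362361, and on chromosome 5, 51448291 to 51449290. Just outside it lay regions of 999 bp on chromosome 3, 47292479 to 47293477, on chromosome 7, 34416828 to 34417826, and on chromosome 15, 8313950 to 8314948. The 3 regions just outside had top-set peaks in 9, 12 and 12 lists and those just inside in 12, 5 and 12, so regions on both sides of the limit could be shared by all lists or missing from some.

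**Figure D1:**
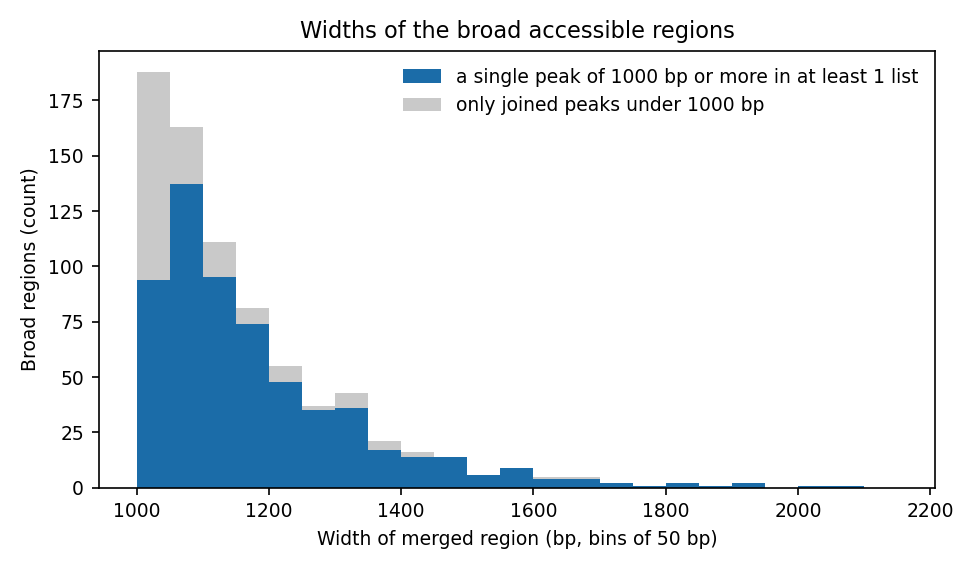
Histogram of the widths of the 764 broad regions in bins of 50 bp; blue bars count regions that hold a single peak of 1000 bp or more in at least 1 list, and grey bars stacked on them count regions that reach that width only where narrower peaks of several lists or positions are joined. Counts fall from the left, and the 167 regions of the grey kind have a median width of 1037 bp.

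The width came from single long peaks in most regions. In 597 of the 764 regions (78.1%) at least 1 list held an unbroken peak of 1000 bp or more. In the other 167 no list did, and the region arose by joining shorter peaks, whose widest had a median of 932 bp. The single long peak was usually not shared: 305 regions had one in exactly 1 list, 173 in 2 lists, and only 41 in 4 or more. The widest peak of a region lay in an 80% epiboly DMSO list in 576 regions, 323 times in replicate 1 and 253 times in replicate 2.

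A summit is the base of a peak with the most fragments. Summits closer than 100 bp to the next one were chained into 1 position, so a position can span more than 100 bp. By this count 240 regions (31.4%) had a single summit position over all lists, 381 had 2, 114 had 3, 26 had 4 and 3 had 5. Regions with a long single peak and regions of joined peaks both had a median of 2 positions. The 3 regions with 5 positions differed in presence. One lay on chromosome 6, 56566003 to 56567629, and was 1627 bp wide, but its widest peak in any list was 903 bp and only 4 lists had a top-set peak there. Another, on chromosome 17, 46968085 to 46969329, was read as 2 peaks in 80% epiboly atRA replicate 1 and in all 4 lists of 12 somites, and as 1 peak in the other atRA list of 80% epiboly and in the 4 lists of 24 hpf. That region had no top-set peak in either DMSO list of 80% epiboly, where its best peaks ranked 52084 and 51298, just outside the top set. The last, on chromosome 19, 48363541 to 48365126, had 16 summits in all, from 12 lists.

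Compared with narrower regions, broad regions more often had their best-ranked summit near an edge. It was found in the outer 20% of the region's length on either side in 319 of 764 regions (41.8%), against 17.1% of the 4758 regions of 700 to 999 bp and 4.03% of the 15689 regions of 500 to 699 bp. Among the 35 regions of 1500 bp or more the share was 51.4%. The outer parts, 20% on each side, together make up a part of the length close to 41.8%. The share over all broad regions was thus near that of evenly spread positions, and does not show a preference for edges. The position of the summit was not used to choose the regions, although a wide region leaves more room for an edge position. Built without the 4 lists of 80% epiboly, broad regions had a share of 30.3%, and built without both DMSO lists of that stage 33.5%. Both shares were below the outer part of the length.

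**Figure D2:**
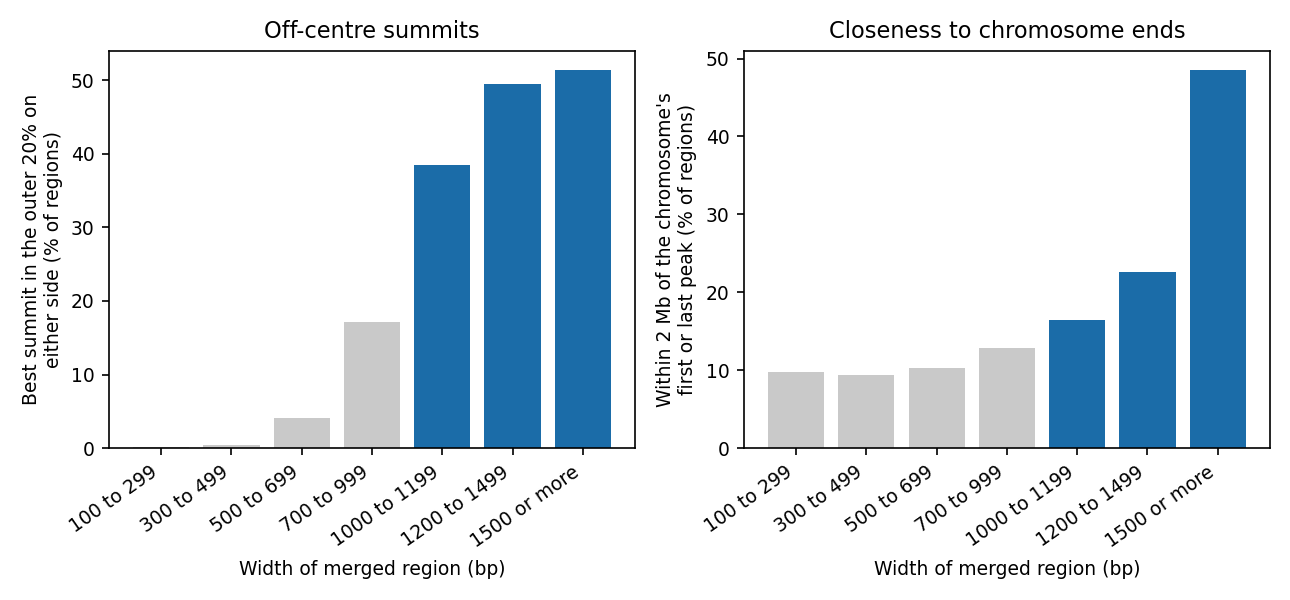
Merged regions grouped by width in bp (horizontal axes), with regions under 1000 bp in grey and broad regions in blue; the left panel gives the percentage whose best-ranked summit lies in the outer 20% of the length on either side, and the right panel the percentage within 2 Mb of the first or last peak of their chromosome. Both percentages are highest in regions of 1500 bp or more, at 51.4% and 48.6%.

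Broad regions were found more often toward the ends of chromosomes, a property that the choice of regions did not use. Taking the first and last peak of any list as the ends, 148 of the 764 broad regions (19.4%) lay within 2 Mb of an end, against 9.80% of the regions under 1000 bp. Within 1 Mb the shares were 12.2% and 5.35%. Among narrower regions the share within 2 Mb was 9.34% from 300 to under 500 bp, 10.3% from 500 to under 700 bp and 12.8% from 700 to under 1000 bp. It was 16.4% from 1000 to under 1200 bp, so the rise with width began below the limit and was not particular to broad regions. The share of merged regions that were broad was 1.53% within 1 Mb of an end, 1.10% from 1 to 2 Mb, 0.642% from 2 to 5 Mb and 0.594% beyond 10 Mb. Of the 35 regions of 1500 bp or more, 17 lay within 2 Mb. These positions were spread over the genome. Of the 50 chromosome ends, 45 had at least 1 broad region within 2 Mb, which by itself does not show an excess. At 35 of the 50 ends the share of merged regions within 2 Mb that were broad was above the 0.680% over all merged regions. The low end of chromosome 18, with 10 broad regions, had the most (named after its value was seen).

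The same comparison was made in regions built from fewer lists. In broad regions built from the 4 lists of 80% epiboly alone, 132 of 623 (21.2%) lay within 2 Mb of an end, against 10.2% of narrower regions from the same lists. From 24 hpf alone they were 19 of 94 (20.2%, against 9.58%), and from 12 somites alone 8 of 68 (11.8%, against 10.6%). At 12 somites the share was thus close to that of narrower regions. By chromosome, broad regions made up between 0.499% of merged regions (20 on chromosome 11) and 0.988% (44 on chromosome 19). As for neighbours, both the broad and the narrower regions had a median of 10 other merged regions within 50 kb. Another broad region lay within 10 kb of only 10 of them.

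The strength of the summit was unevenly related to breadth. In regions with a top-set peak in all 12 lists, the median rank of each region over the 12 lists had a median of 9086 for the 458 broad regions and 10589 for the 16497 narrower ones, where rank 1 is the best. Of such regions with a median rank up to 1000, 28 of 718 (3.90%) were broad, against 63 of 2832 (2.22%) with a rank beyond 20000. Per list, the best peaks of broad regions had a median rank between 10746 (24 hpf atRA replicate 2) and 17881 (80% epiboly DMSO replicate 2). They had their worst median ranks in the deep DMSO lists of 80% epiboly, where they were widest. For narrower regions the median rank was between 24939.5 and 25061 in every list. Nearly all top-set peaks lay in narrower regions, so a median near the middle of the ranks was fixed in advance. The distance of broad regions from it is therefore not a measured difference in strength. Among regions present in all lists the gap was smaller, at 9086 against 10589. With all single-list ranks of such regions pooled, the median was 8716 in broad regions and 10024 in those of 1500 bp or more. It was 8509.5 in regions from 700 to under 1000 bp and 9017 from 500 to under 700 bp. The better rank was thus not particular to broad regions. The median fold enrichment, the authors' ratio of a peak to the caller's local background, was lower for broad regions in the deeper libraries of 80% epiboly. It was 9.10 and 9.09 against 10.5 and 10.4 for narrower regions in DMSO, and 9.88 against 10.7 in atRA replicate 1. In all other lists it was higher for broad regions, for example 8.95 against 7.70 in 12 somites DMSO replicate 1 and 8.05 against 6.86 in 24 hpf atRA replicate 2. These medians were over regions with a top-set peak in that list, so narrower regions present in few lists are included. A region read as several peaks entered with the highest of their folds.

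The best-ranked broad regions were not the widest. The region on chromosome 3, 11860765 to 11861846, had the best median rank, 51.5. Its ranks were 497 and 472 in DMSO and 424 and 66 in atRA at 80% epiboly, 7 and 13 in DMSO and 19 and 21 in atRA at 12 somites, and 56 and 7 in DMSO and 311 and 47 in atRA at 24 hpf. Its covered length, the bases of the region inside top-set peaks, was 1070 and 991 bp in DMSO and 956 and 846 bp in atRA at 80% epiboly. At 12 somites it was 587 and 875 bp in DMSO and 872 and 979 bp in atRA. At 24 hpf it was 418 and 352 bp in DMSO and 371 and 354 bp in atRA. All 4 libraries of 24 hpf thus had a smaller covered length than any library of the earlier stages, while the summit kept a high rank. This does not hold for unbroken peaks. In 12 somites DMSO replicate 1 the 587 bp were 2 separate peaks, the wider of 345 bp and the other at rank 47069. All lists of 24 hpf held further peaks of the region outside their top sets, so the covered length depends on the cut in rank. Next in rank came chromosome 13, 45387127 to 45388187 (median rank 53), and chromosome 7, 61769967 to 61771139 (median rank 76).

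On presence, the broad regions were common to the stages. A top-set peak was found in all 12 lists in 458 regions (59.9%), against 14.8% of the narrower regions. Part of that gap is built in, since joining peaks of more lists can only widen a region. Among narrower regions the share rose with width, to 32.5% from 500 to under 700 bp and 46.7% from 700 to under 1000 bp. In broad regions it was 57.5% from 1000 to under 1200 bp, 67.7% from 1200 to under 1500 bp and 57.1% at 1500 bp or more. Only 4 broad regions (0.524%) had a top-set peak in a single list, against 24.6% of the narrower regions. All 3 stages were represented in 659 regions. A further 43 had peaks at 80% epiboly and 12 somites but not 24 hpf, 33 at 80% epiboly alone, 21 at 80% epiboly and 24 hpf, 7 at the 2 later stages and 1 at 24 hpf alone. These counts by stage were not made over the narrower regions, so they have no background to be set against.

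**Figure D3:**
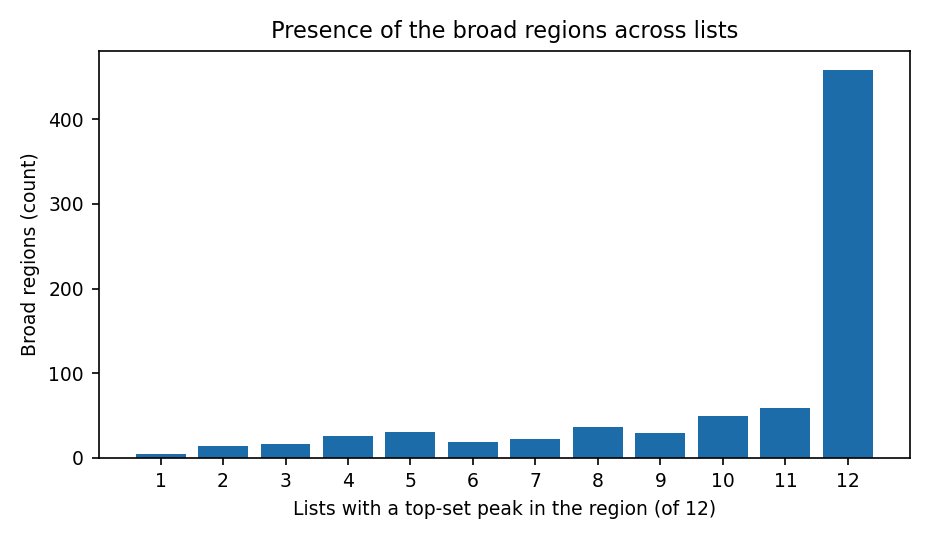
Bars count the broad regions by the number of lists, of 12, that hold a top-set peak in them. The bar at 12 lists holds 458 of the 764 regions and that at 1 list holds 4.

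By library, a top-set peak was found at 80% epiboly in 707 and 702 of the 764 regions in DMSO and in 683 and 698 in atRA. At 12 somites the numbers were 628 and 631 in DMSO and 622 and 641 in atRA. At 24 hpf they were 619 and 622 in DMSO and 625 and 621 in atRA. All 4 libraries of 80% epiboly lay above all 8 libraries of the later stages, and DMSO and atRA overlapped at 12 somites and 24 hpf. The pileups of these libraries were 0.87 to 3.28 at 80% epiboly, where the library at 0.87 had 698, and 0.69 to 2.03 at the later stages. The part of depth in this order was not tested. The narrower regions had a top-set peak in 43.4% to 44.0% of cases in every list. That share was largely fixed in advance, since each list gave the same number of top-set peaks, nearly all of them in narrower regions. It therefore cannot show whether presence in narrower regions varied with stage or depth. The 80% epiboly lists supplied most of the long peaks that chose the regions, so their higher presence is a description.

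Regions can be built without a stage and then read in that stage. Broad regions built from the 8 lists of 12 somites and 24 hpf numbered 155, and 133 of them (85.8%) had a top-set peak in all 4 lists of 80% epiboly, and 87.1% to 91.6% had one in any single list of that stage. Broad regions built from 80% epiboly alone numbered 623, and 390 of them (62.6%) had a top-set peak in all 8 later lists, while 33 had none there. With 4 lists to meet on one side and 8 on the other, these percentages are not directly comparable. Regions built from DMSO lists alone numbered 632, of which 429 (67.9%) were in all 6 atRA lists and 10 in none. Regions built from atRA lists alone numbered 269, of which 174 (64.7%) were in all 6 DMSO lists and 5 in none. None of these shares was computed for narrower regions built from the same lists. They describe the broad regions and do not set them apart from narrower ones.

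Width within a stage was far less shared than presence. A stretch of 1000 bp or more was reached within the 4 lists of 80% epiboly alone by 623 regions (81.5%), within 12 somites alone by 68 (8.90%) and within 24 hpf alone by 94 (12.3%). Built without both DMSO lists of 80% epiboly, the broad regions that reached it within that stage were 173 of 322. Only 24 regions reached it in each of the 3 stages, 543 did so at 80% epiboly alone, 11 at 12 somites alone and 31 at 24 hpf alone. The median of the widest joined stretch in a region was 1081 bp at 80% epiboly, 593 bp at 12 somites and 594 bp at 24 hpf.

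Long single peaks were most frequent in the DMSO libraries of 80% epiboly. A peak of 1000 bp or more was found in 408 and 355 broad regions in DMSO at 80% epiboly, and in 157 and 24 in atRA. At 12 somites there were 1 and 12 in DMSO and 33 and 23 in atRA. At 24 hpf there were 17 and 39 in DMSO and 16 and 19 in atRA. In the same order, the pileups were 3.18 and 3.28 in DMSO and 2.47 and 0.87 in atRA at 80% epiboly, 0.69 and 1.15 in DMSO and 1.6 and 1.44 in atRA at 12 somites, and 1.39 and 2.03 in DMSO and 2.03 and 1.98 in atRA at 24 hpf. At 80% epiboly and 12 somites each library of the deeper arm had more long peaks than each library of the other arm, so depth and treatment cannot be told apart there. The 3 libraries with a pileup of 2.47 or more had 157 to 408, and the library at 0.69 had 1. The library at 0.87 had 24, and the libraries of 24 hpf, all with higher pileups, had 17, 39, 16 and 19. Of both DMSO libraries at 80% epiboly the one with the lower pileup had more. The part of depth in these counts was not tested.

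**Figure D4:**
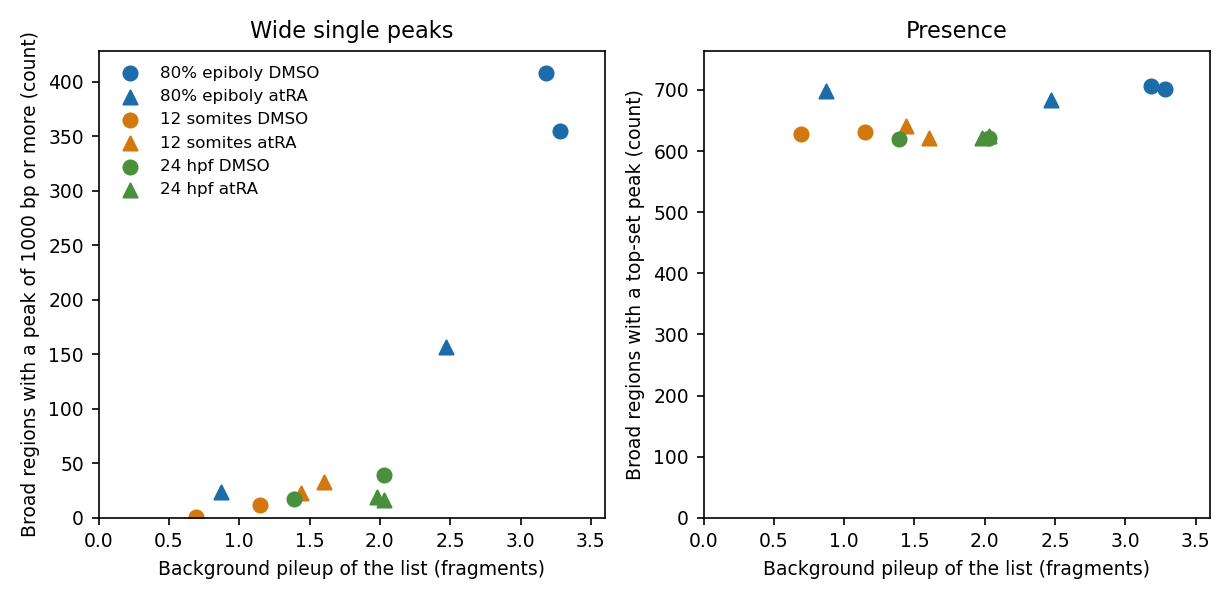
Each point is 1 library, coloured by stage, with circles for DMSO and triangles for atRA; the horizontal axes give the background pileup in fragments, the left vertical axis the number of broad regions with a single peak of 1000 bp or more, and the right vertical axis the number with any top-set peak. Long peaks number 157 to 408 in the 3 libraries with a pileup of 2.47 or more and 1 to 39 in the others, and presence is 683 to 707 in the 4 libraries of 80% epiboly and 619 to 641 in the others.

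Long stretches were split in every list. Broad regions that were read as 2 or more separate peaks made up 11.2% and 12.3% of those present in the DMSO lists at 80% epiboly, and 15.1% and 28.8% in the atRA lists. At 12 somites they were 29.0% and 26.9% in DMSO and 23.0% and 24.3% in atRA, and at 24 hpf 23.1% and 21.5% in DMSO and 27.0% and 27.4% in atRA. At 80% epiboly the atRA lists, of lower pileup, had the larger shares, and at 12 somites the DMSO lists, also of lower pileup. At 24 hpf the atRA lists had the larger shares, at pileups of 2.03 and 1.98, against 1.39 and 2.03 in DMSO. The part of depth in these shares was not tested.

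The widest region of all, on chromosome 17, 1524091 to 1526172, shows the pattern in a single place. It was 2082 bp wide and lay 1.52 Mb from the chromosome's first peak. Its covered length at 80% epiboly was 1488 and 2082 bp in DMSO and 1375 and 916 bp in atRA. At 12 somites it was 463 and 603 bp in DMSO and 328 and 311 bp in atRA, and at 24 hpf 317 and 295 bp in DMSO and 423 and 310 bp in atRA. All 4 libraries of 80% epiboly lay above the 8 others. DMSO and atRA did not overlap at 80% epiboly, where the DMSO libraries of higher pileup were longer, or at 12 somites. At 12 somites the DMSO libraries, of lower pileup, had the greater covered length through a second peak, at ranks of 31169 and 43164. Their widest peaks were 276 and 305 bp, against 328 and 311 bp in atRA. The best rank of the region moved against its covered length between stages. It was 22864 and 29856 in DMSO and 26361 and 6914 in atRA at 80% epiboly, and between 3482 and 6622 in the 8 later libraries.

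The other 4 of the 5 widest regions were alike in being longest in the DMSO libraries of 80% epiboly, which supplied most of the long peaks that chose the regions. On chromosome 19, 47023035 to 47025053, which was 2019 bp wide, the covered length was 1959 and 1521 bp in DMSO and 1331 and 914 bp in atRA at that stage. In the 8 later libraries it was between 269 and 1040 bp, a range that takes in the 914 bp of 80% epiboly atRA replicate 2. On chromosome 3, 6785696 to 6787631, a single summit position was read in all 12 lists, and the peak was 1911, 1912 and 1735 bp long in the 3 deeper libraries of 80% epiboly and 410 bp in atRA replicate 2. In the later libraries it was 328 to 485 bp long, a range that takes in those 410 bp. Its right edge stayed within 102 bp over all lists, and its left edge spread over 1562 bp. On chromosome 19, 46521400 to 46523313, a single summit position was again read in all 12 lists. The peak there was 1896 and 1434 bp long in DMSO and 1077 and 830 bp in atRA at 80% epiboly. It was 363 to 509 bp long later, and its right edge stayed within 22 bp while its left edge spread over 1541 bp. These peaks lengthened on one side of a fixed edge. On chromosome 19, 222321 to 224185, only 6 lists had a top-set peak, namely all 4 of 80% epiboly, 12 somites atRA replicate 2 and 24 hpf DMSO replicate 2.

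A single region was long in every list. On chromosome 17, 39991167 to 39992259, an unbroken peak of 1065 to 1086 bp was present in all 12 lists. Its edges were fixed, with the left edge within 21 bp and the right edge within 11 bp over all lists, although depth ranged from 0.69 to 3.28. The ratio of the highest to the lowest covered length was 1.02, the lowest among the 458 broad regions present in all lists, whose median ratio was 3.09. The summit was right of the centre in 9 lists and left of it in 3, and the fold enrichment was 9.38 to 13.3. Its rank was 9684 and 8774 in DMSO and 3742 and 291 in atRA at 80% epiboly, and reached 16 in 24 hpf atRA replicate 2. At 80% epiboly the ranks were better in both atRA lists, which had the lower pileups, so depth and treatment cannot be told apart there. Only 21 of the 458 regions had a ratio under 1.5.

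**Figure D5:**
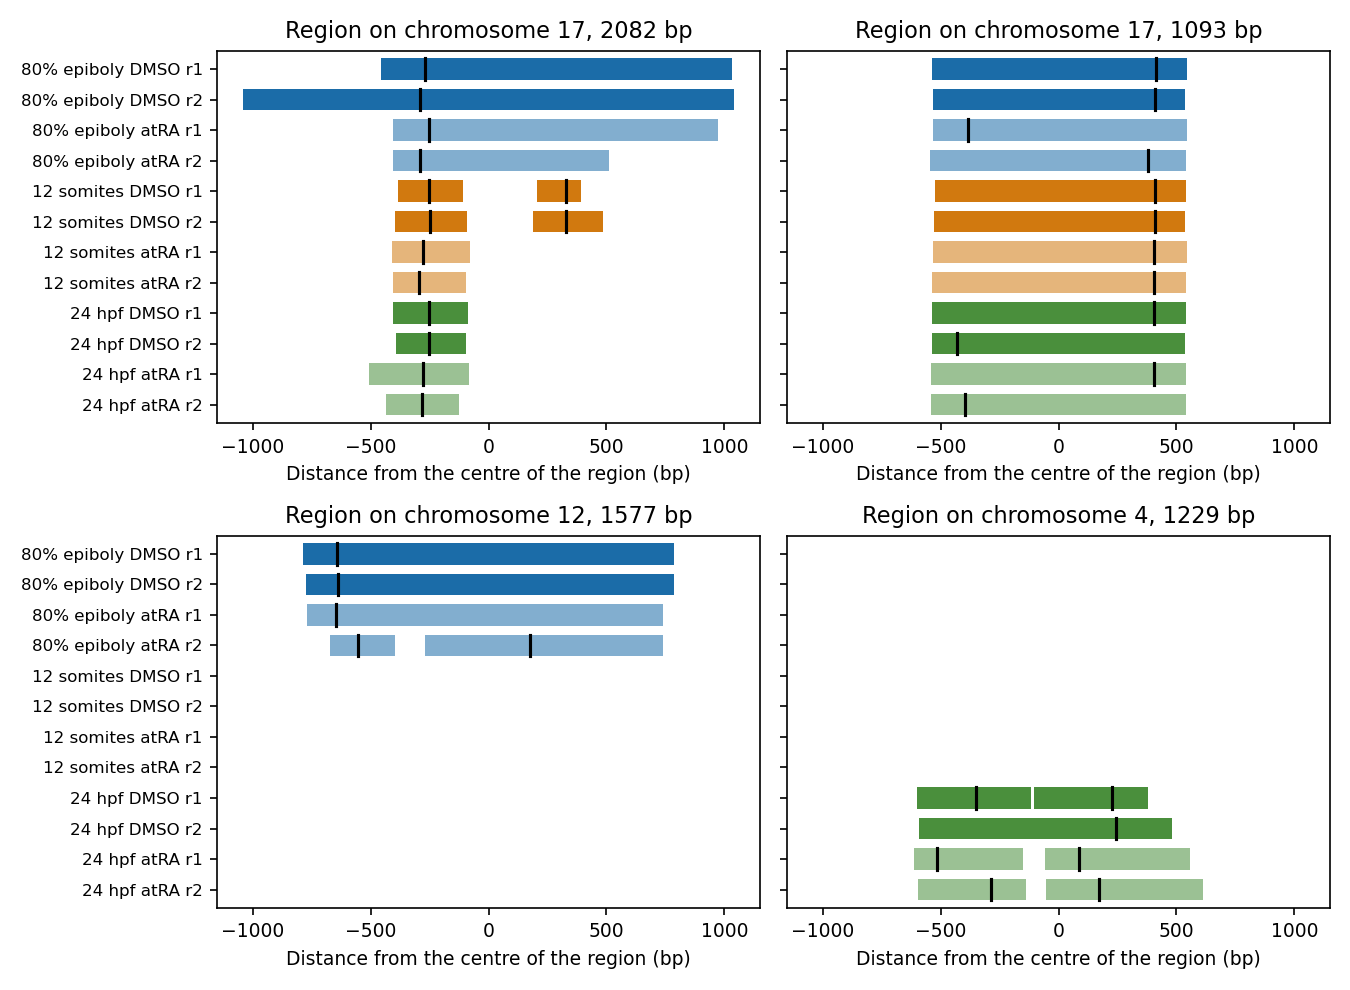
Top-set peaks of 4 broad regions in each of the 12 lists (rows, r1 and r2 for the replicates), drawn to scale as bars against the distance in bp from the centre of the region, with a black line at each summit; colours mark the stages, and paler bars are atRA. The widest region (top left, 2082 bp) is long only at 80% epiboly, another region of the same chromosome (top right, 1093 bp) has the same length in all lists, and the lower regions have top-set peaks only at 80% epiboly (left) or only at 24 hpf (right).

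Regions that differed in presence between stages were few, among broad regions as among all merged regions. A region was called so if it was in the top sets of all 4 lists of one stage and in the wide set, the best 100000 peaks, of none of the 4 lists of the other. In the wide set of no 12 somites list but in all top sets of 80% epiboly were 5 of 764 broad regions, or 0.654%, against 0.602% of all merged regions. In 80% epiboly and not 24 hpf were 4 broad regions (0.524%), against 1.34% of all merged regions. In the other direction, 24 hpf and not 80% epiboly, there were 4 (0.524%) against 1.26%. In 12 somites and not 80% epiboly there were 2 (0.262%) against 0.472%. In 24 hpf and not 12 somites there were 2 (0.262%) against 0.202%, and in 12 somites and not 24 hpf 0 against 0.235%. At most 5 regions stood behind any of these counts. A wide region has more room than a narrow one to overlap a wide-set peak by 1 bp and so to escape the call. A called region could still hold a peak of lower rank at the other stage. With a top set of 100000 peaks, 1 of 1019 broad regions was in 24 hpf and not 80% epiboly (0.0981%, against 0.909%).

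The regions with the widest gap in covered length between a stage and the others were picked apart from that call, and not all of them met it. On chromosome 12, 18757257 to 18758833, the covered length at 80% epiboly was 1574 and 1564 bp in DMSO and 1511 and 1287 bp in atRA, at ranks of 29348 to 44207. None of the 8 later lists had a top-set peak there. Their best peaks ranked 105239 to 122124 at 12 somites and 53046 to 97224 at 24 hpf, the latter inside the wide set. On chromosome 7, 12751692 to 12752817, the covered length was 1112 and 935 bp in DMSO and 1047 and 783 bp in atRA, with no top-set peak later. There, peaks of rank 69797 at 12 somites and 89061 at 24 hpf lay inside the wide set, so the region met no call. On chromosome 4, 39271585 to 39272813, the covered length was 968 and 1074 bp in DMSO and 1079 and 1127 bp in atRA at 24 hpf. No list of the earlier stages had a top-set peak in that region. On chromosome 24, 5073147 to 5074220, the covered length was 1033 and 935 bp in DMSO and 965 and 1053 bp in atRA at 24 hpf. There, 3 of the 4 lists of 12 somites had a short peak of 219 to 469 bp, and no list of 80% epiboly had one in its top set. These 4 regions were picked for that gap. No region had a positive gap at 12 somites.

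The comparison with treatment asked where retinoic acid opened or closed a broad region. Gained regions were in the top set of both atRA lists of a stage and in the wide set of neither DMSO list, and lost regions the reverse. At 80% epiboly 2 of 764 broad regions were gained (0.262%) and 1 lost (0.131%), against 0.375% and 0.541% of all 112288 merged regions. At 12 somites 2 were gained (0.262%) and 0 lost, against 0.41% and 0.158%. At 24 hpf 0 were gained and 0 lost, against 0.143% and 0.215%. Counts this small do not set broad regions apart, and a wide region has more room than a narrow one to overlap a wide-set peak by 1 bp and so to escape the call. The counts depended on what counted as presence. When a peak and the region each had to overlap the other by 50%, 136 were lost at 80% epiboly (17.8%, against 1.56% of all merged regions) and 57 gained at 12 somites (7.46%, against 1.78%). A broad region then counts as present only with a single peak over at least 50% of its width, so these counts reflect the length of peaks. With absence as no peak at any rank all 6 counts were 0, against at most 0.041% of all merged regions. Without 80% epiboly atRA replicate 2 there were 6 lost at that stage (0.796%, against 1.53%), and without 12 somites DMSO replicate 2 there were 8 gained at 12 somites (1.05%, against 2.41%). No exact permutation test of 2 against 2 libraries can give a two-sided p under 0.33, so none was made.

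The gained region with the best ranks at 80% epiboly lay on chromosome 8, 34866214 to 34867370. Its best peaks ranked 26351 and 41391 in atRA against 219960 and 144640 in DMSO, and the covered length in atRA was 782 and 758 bp. At 12 somites all 4 libraries had it, with 768 and 826 bp in DMSO and 821 and 1130 bp in atRA. At 24 hpf it had 614 bp and no top-set peak in DMSO, and 713 and 810 bp in atRA. A top-set peak was thus present in DMSO at 12 somites and in atRA at both stages. The other, on chromosome 7, 2351521 to 2352691, ranked 27958 and 43203 in atRA against 118283 and 113413 in DMSO, with 729 and 613 bp in atRA.

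The region lost at 80% epiboly, on chromosome 5, 47364497 to 47365508, had covered lengths of 1011 and 399 bp in DMSO and ranked 40123 and 32033, against 123119 and 134433 in atRA. At 12 somites both DMSO lists had a top-set peak in the region, with 151 and 273 bp covered. These DMSO peaks lay on opposite sides of the region's centre and did not overlap, so they do not show the same site in both lists. Neither atRA list of 12 somites had a top-set peak in the region, where their best peaks ranked 66325 and 108238. The regions gained at 12 somites were on chromosome 12, 8919898 to 8920989, and on chromosome 1, 35360710 to 35361810. The former ranked 13956 and 26525 in atRA against 102477 and 130871 in DMSO. It was also in the top sets of all 4 lists of 80% epiboly, at ranks of 10063 to 21455, and at 24 hpf of both atRA lists, at 13358 and 17369, and neither DMSO list. One DMSO list of 24 hpf ranked it 85527 and the other had no peak. The latter region ranked 41819 and 23033 in atRA at 12 somites against 104638 and 163977 in DMSO, with 685 and 529 bp covered in atRA. At 80% epiboly it had a top-set peak only in DMSO replicate 1 (1059 bp). At 24 hpf it had one in both DMSO lists (469 and 528 bp) and in atRA replicate 1 (467 bp), so at neither stage did atRA have more than DMSO. All of these regions had a peak at some rank in every DMSO and atRA list of the stage of the call, so each was a change of rank and not the absence of a peak.

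Covered length was compared between treatments among broad regions with a top-set peak in all 4 lists of a stage. At 80% epiboly both DMSO lists were above both atRA lists in 427 of 618 broad regions (69.1%, against 48.2% of 31030 merged regions) and below both in 11 (1.78%, against 4.11%). At 12 somites both atRA lists were above both DMSO lists in 296 of 545 (54.3%, against 48.5%) and below in 19 (3.49%, against 2.34%). At 24 hpf both DMSO lists were above in 136 of 555 (24.5%, against 29%) and below in 60 (10.8%, against 8.34%). The arm with the longer stretches was the deeper arm at 80% epiboly and 12 somites, and at 24 hpf the arm with the lower mean pileup, 1.71 in DMSO against 2.005 in atRA. The part of depth in these counts was not tested. Covered length is close to the width that chose the regions, so the gap from the background at 80% epiboly is a description.

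Each covered length was then divided by the summed length of the list's top set. At 80% epiboly DMSO was above in 249 of 618 broad regions (40.3%, against 13.6%) and atRA in 74 (12.0%, against 37%). At 12 somites atRA was above in 128 of 545 (23.5%, against 11.8%) and DMSO in 93 (17.1%, against 30.9%). At both stages fewer broad regions were separated toward the deeper arm than without scaling, while their excess over the background in points was larger. At 24 hpf the order turned, with atRA above in 134 of 555 (24.1%, against 22.2%) and DMSO in 82 (14.8%, against 14%). The broad regions held 3.47% and 3.36% of the top-set length in the DMSO lists of 80% epiboly and 2.81% and 2.66% in the atRA lists. At 12 somites they held 2.11% and 2.27% in DMSO and 2.33% and 2.41% in atRA, and at 24 hpf 2.23% and 2.39% in DMSO and 2.35% and 2.38% in atRA.

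The excess in the share of top-set length in the DMSO lists of 80% epiboly depended on how the regions were chosen. In the 155 broad regions built from the later lists alone, the share of top-set length at 80% epiboly was 0.631% and 0.633% in DMSO and 0.621% and 0.642% in atRA, so that both atRA values enclosed the DMSO values. Their median covered length was still 1028 and 1009 bp in DMSO against 904.5 and 743 bp in atRA. A peak of 1000 bp or more was still found in 78 and 70 of the 155 regions in DMSO, against 43 and 13 in atRA, of lower pileup. A top-set peak of any length was present in 135 and 137 of the 155 regions in DMSO and in 142 in each of the atRA lists.

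Between stages, with DMSO and atRA together, the shares of broad regions with separate covered lengths were near the background. All 4 lists of 80% epiboly were above all 4 of 12 somites in 104 of 504 broad regions (20.6%, against 19.5% of merged regions). They were above all 4 of 24 hpf in 113 of 502 (22.5%, against 22.4%). The reverse held in 2 of 504 (0.397%, against 0.37%) and 12 of 502 (2.39%, against 1.48%). Between 12 somites and 24 hpf, 10 of 491 (2.04%, against 2.66%) were longer at 12 somites and 15 (3.05%, against 2.79%) at 24 hpf. Per summed length of the top set, broad regions were longer at 80% epiboly than at 12 somites in 54 of 504 (10.7%, against 3.6%) and shorter in 23 (4.56%, against 12%). The same scaling against 24 hpf made them longer at 80% epiboly in 61 of 502 (12.2%, against 4.16%) and shorter in 43 (8.57%, against 16.9%). Between the later stages, 34 of 491 (6.92%, against 4.98%) were longer at 24 hpf and 15 (3.05%, against 3.05%) at 12 somites. The scaled shares at 80% epiboly, where most long peaks were found, thus lay above the background, which the choice of regions by width can give.

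The position of the best summit was compared between libraries in the 458 broad regions present in all lists. Pairs of the same stage and treatment had a summit more than 200 bp apart in 5.68% to 10.3% of these regions (6 pairs, mean 7.79%). Pairs of the same stage and different treatment had one in 6.11% to 10.9% (12 pairs, mean 8.24%), which overlaps the former range. Pairs of different stages had one in 8.30% to 19.2% (48 pairs, mean 13.2%). The mean was 10.5% between 12 somites and 24 hpf, 13.1% between 80% epiboly and 12 somites, and 16.1% between 80% epiboly and 24 hpf. The median distance was 9 to 20 bp within groups and 17 to 34.5 bp between stages. In the 16497 narrower regions present in all lists, which leave less room for a shift, the percentages were 0.861% to 1.49% within groups and 1.19% to 2.15% between stages. In most broad regions the strongest point thus lay within 200 bp across stages. Shifts were on average more frequent between stages than between treatments, although the ranges over pairs overlapped, and pairs share libraries, so no test was made.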

How the data were processed

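ATAC-seq was run on whole zebrafish embryos, and the authors deposited 1 peak list per library, 12 in all. The submitters' processing notes name Bowtie2, SAMtools and MACS2 and the builds GRCz10 and danRer10. Versions and settings are not given in the sources used here. Per the deposited lists, each peak has a fold enrichment (a ratio to the caller's background), a −log10 p-value, a −log10 q-value, a summit offset and a score, which is 10 times the −log10 q-value cut to a whole number. The lists have no header lines, and their peak names carry the tag nucfree, whose selection of fragments is not stated. Longer fragments left out at that step would not add to a width.

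Depth is unknown as a read total. It was measured by the most frequent background pileup of a list, solved from fold and −log10 p-value with a whole-number pileup (tolerance 0.001, every 40th peak, 100% solved). No counting interval is given. Merging was tested on simulated lists with planted regions. Python 3.11.15, pandas 2.3.3 and scipy 1.17.1 were used. The regions, lists and comparisons were chosen with earlier results of these data known.

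Named regions were the 5 widest, the 3 with most summit positions, the 3 with the best median rank, the 3 with the widest single peak, 2 per stage by gap in covered length, up to 2 per stage and direction of treatment, and 3 either side of 1000 bp. The 3 with the widest single peak were also the 3 widest. Gene annotation and sequence composition were planned for a genome of the files' build and were not analysed here. The alternatives used other top sets (20000 or 100000 peaks), a ranking by fold, joining at 100 bp of overlap, other width limits, other definitions of presence and absence, scaled lengths and leaving out libraries.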

Additional observations from a re-analysis of the deposited data

Results flagged for a closer look

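Between stages, several values of the broad regions moved in opposite directions with atRA, with no overlap between the arms at either stage. The difference between stages was not tested. The number of broad regions with a single peak of 1000 bp or more was -291 in atRA relative to DMSO at 80% epiboly and 21.5 at 12 somites. The percentage of top-set length in broad regions differed by -0.682 points at 80% epiboly and 0.18 points at 12 somites. The percentage of broad regions read as 2 or more peaks differed by 10.2 points at 80% epiboly, -4.3 points at 12 somites and 4.89 points at 24 hpf. Mean background pileups were 3.23 in DMSO and 1.67 in atRA at 80% epiboly, 0.92 and 1.52 at 12 somites, and 1.71 and 2.005 at 24 hpf. The part of depth in these differences was not tested.

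On the mitochondrial genome, which no comparison used, the widest peak was 178 bp longer on average in atRA than in DMSO at 12 somites, at 3130 and 2993 bp against 2875 and 2892 bp. At 24 hpf it was shorter in atRA, at 2725 and 2806 bp against 2889 and 2937 bp, and at 80% epiboly the arms overlapped, at 3088 and 2617 bp in atRA and 3008 and 3121 bp in DMSO. The difference between stages was not tested. Each list had 2 mitochondrial peaks of 1000 bp or more.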

How the results depend on the processing

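Background pileups ranged from 0.69 to 3.28, and the part of depth in the lengths of peaks was not tested. No result comes from a test. Libraries of different groups share replicate numbers only: over merged regions in all 4 lists of a stage, the difference between replicates 1 and 2 in DMSO correlated with that in atRA at -0.0057, -0.016 and -0.056 at the 3 stages in order. Compared as a replicate block, within each same-numbered pair, covered length was higher in atRA in 15, 358 and 90 broad regions and in DMSO in 481, 31 and 171. These paired counts were not made over all merged regions, so they have no background to be set against. Pairing leaves the conditions for gained and lost regions as they are. Comparisons at gene starts were not run. Leaving out the 80% epiboly lists, the replicate block, and all alternatives for chromosome ends and summit position, were chosen after seeing the data.

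The number of broad regions, 764, became 432 with a top set of 20000 peaks, 2805 at 800 bp, 35 at 1500 bp, 322 without both 80% epiboly DMSO lists and 155 without the 4 lists of that stage. The share in all lists, 59.9%, became 47.7% with 20000 peaks, 70.1% with 100000, 52.4% ranked by fold and 83.2% without the stage. The share within 2 Mb of an end, 19.4%, became 16.2% with 20000 peaks, 14.1% by fold and 24.8% without both DMSO lists. The share with an off-centre summit became 33.5% without both DMSO lists and 30.3% without the stage. The median width became 1093 bp by fold, 1099.5 bp without both DMSO lists and 1084 bp without the stage. Regions of 1000 bp within 80% epiboly became 345 with 20000 peaks, 403 by fold and 173 without both DMSO lists, and within 12 somites 44 with 20000 peaks.

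With 20000 peaks, 0 were gained and 0 lost at 80% epiboly, 0 gained at 12 somites and 1 at 24 hpf, and with 100000 peaks 0 were gained at 12 somites. By fold, 0 were lost at 80% epiboly and 0 gained at 12 somites. Joining at 100 bp left 1 gained at 80% epiboly. With reciprocal overlap, 136 were lost at 80% epiboly and 57 gained at 12 somites, with shares given in the results. At 24 hpf 4 were gained (0.524%, against 0.281% of all merged regions) and 22 lost (2.88%, against 0.993%). With absence as no peak, 0 were gained or lost at 80% epiboly and 0 gained at 12 somites, which was also 0 without either set of 80% epiboly lists. Between stages, 12 somites and not 80% epiboly held 0 with 20000 peaks and 1 with 100000. At 24 hpf and not 12 somites there was 1 with 20000 peaks and 1 without 80% epiboly. With 100000 peaks, 12 somites and not 24 hpf held 1, and 24 hpf and not 80% epiboly 1. At 80% epiboly and not 24 hpf there was 1 without both DMSO lists. Except where a share is given here or in the results, the counts under these settings were not made over all merged regions. They therefore have no background to be set against.

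Covered length with 20000 peaks was higher in atRA in 1 and in DMSO in 208 regions at 80% epiboly, 144 and 8 at 12 somites, and 31 and 59 at 24 hpf. With 100000 peaks it was higher in atRA in 21 at 80% epiboly and 100 at 24 hpf. By fold it was higher in atRA in 5 and in DMSO in 246 at 80% epiboly, and in DMSO in 9 at 12 somites. Per summed length, atRA and DMSO had 74 and 249 at 80% epiboly, 128 and 93 at 12 somites, and 134 and 82 at 24 hpf. Without both DMSO lists they had 133 and 12 at 12 somites and 24 and 58 at 24 hpf, and without the stage 82 and 3, and 16 and 37. Fewer lists or peaks leave fewer broad regions to count, and other causes were not tested. Covered lengths under these settings, or with libraries left out, were not counted over all merged regions, except per summed length.

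Leaving out 1 library at a time gave 600 to 763 broad regions, a median width of 1106.5 to 1114 bp, 60% to 63.0% in all lists, 18.1% to 21.3% near an end and 40.5% to 43.0% with an off-centre summit. Within 80% epiboly 453 to 623 reached 1000 bp, within 12 somites 41 to 68 (41 without atRA replicate 1, 44 without atRA replicate 2) and within 24 hpf 59 to 94 (59 without DMSO replicate 2). Gained regions were 1 to 3, 1 to 8 and 0 to 2 at the 3 stages in order, and lost regions 0 to 6, 0 to 2 and 0 to 2. At 80% epiboly, lost regions were 0 without DMSO replicate 1, 4 without atRA replicate 1 and 6 without atRA replicate 2. Stage counts in the order given in the results were 4 to 7, 3 to 8, 3 to 5, 1 to 3, 1 to 2 and 0 to 1. Except where a share is given in the results, gained, lost and stage counts with a library left out were not made over all merged regions. Covered length was higher in atRA in 10 to 67, 234 to 468 and 41 to 188 regions, and in DMSO in 385 to 574, 15 to 83 and 109 to 297. At 24 hpf every library moved one of these counts by over 1.5 times: the DMSO count was 297 without DMSO replicate 1, and the atRA count was 188 without DMSO replicate 2, 122 without atRA replicate 1 and 156 without atRA replicate 2. The highest atRA count at 80% epiboly was without atRA replicate 2, and the highest DMSO count at 12 somites without DMSO replicate 1. With 1 library left in an arm, separation is easier to reach.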
